A study of Mus musculus with 48 samples.

Results

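Macrophages recover iron from the heme of engulfed cells, and 9 genes of that route were followed here through sorted lymph node cells of mice. The genes are Slc40a1, Hmox1, Spic, Fth1, Ftl1, Tfrc, Slc11a1, Slc48a1 and Blvrb, chosen by name from the 55487 genes of the deposited tables. All 9 passed the filter on low counts in each model fitted. RNA with poly(A) tails was sequenced from 4 myeloid cell types of digested nodes, all labelled as wild type: medullary sinus macrophages (MSM), subcapsular sinus macrophages (SSM), migratory dendritic cells (mDC) and dendritic cells resident in the node (rDC). Every type was sorted from a lymph node (LN) or a tumor-draining lymph node (TDLN), after PBS, a saline buffer, or cisplatin, a platinum drug that crosslinks DNA, which gives 16 groups of 3 libraries and 48 libraries in all. The series' title places the comparison in a study of how node macrophages bear on tolerance and on the response to cancer therapy. The labels used here give no strain, age, dose, time, tumor or site of the LN, and do not say whether libraries of 1 group are from different animals. The p-values therefore measure the spread between these libraries, which may be technical.

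In the textbook route, heme from digested red cells leaves the phagolysosome through the transporter HRG1 (Slc48a1). Heme oxygenase 1 (Hmox1) opens it to iron, carbon monoxide and biliverdin. Biliverdin reductase B (Blvrb) reduces flavins and some isomers of biliverdin, and is not placed here as the step after Hmox1. NRAMP1 (Slc11a1) moves divalent metal out of the phagosome. Iron is then stored in ferritin, a shell of heavy (Fth1) and light (Ftl1) chains, or exported by ferroportin (Slc40a1), the only known iron exporter of mammalian cells. Transferrin receptor 1 (Tfrc) imports iron bound to transferrin. Spi-C (Spic) is a heme-induced transcription factor needed for the red pulp macrophages of the spleen. When iron is scarce, the proteins IRP1 and IRP2 bind a hairpin called the iron-responsive element: in a 5′ untranslated region this blocks translation, and in the 3′ untranslated region of Tfrc it protects the mRNA.

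The hairpins are shown because they divide the members into genes whose RNA level is known to follow iron through such elements, Tfrc, and genes in which the same element acts on translation, which counts of RNA do not measure. The pattern searched on the transcript strand was C, any 5 bases, CAGTG and any base, followed by 5 bases that pair with the 5 bases after the C (G with T allowed). It was found in 4 of the 9 members, each read in a single coding transcript of GENCODE M21 on GRCm38. The 6 loop bases are in capitals. The first 3 lie in 5′ untranslated regions and the last 4 in the 3′ untranslated region of Tfrc.
Slc40a1, chr1:45925464-45925493, minus strand: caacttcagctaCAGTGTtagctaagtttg
Fth1, chr19:9982732-9982761, plus strand: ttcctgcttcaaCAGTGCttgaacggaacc
Ftl1, chr7:45459778-45459807, minus strand: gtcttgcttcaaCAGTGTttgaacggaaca
Tfrc, chr16:32631219-32631248, plus strand: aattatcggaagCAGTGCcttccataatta
Tfrc, chr16:32631598-32631627, plus strand: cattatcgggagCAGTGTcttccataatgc
Tfrc, chr16:32631663-32631692, plus strand: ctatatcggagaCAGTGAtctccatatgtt
Tfrc, chr16:32631710-32631739, plus strand: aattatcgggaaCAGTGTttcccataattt
The same letters occurred in the 5′ untranslated region of 31 of 20916 genes (0.148%) and in the 3′ untranslated region of 129 of 21707 genes (0.594%). These shares count a match in any coding transcript of a gene, a wider search than that of the members. Tfrc has 4 copies. A match describes letters and does not show that a protein binds there.

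Macrophage libraries held 6456456 to 10434248 counts and 18 dendritic cell libraries 2002713 to 3842097 counts. The other 6, from mDC of the TDLN and rDC of the LN, both with PBS, held 10733509 to 15481059 counts. Levels are CPM, the count of a gene scaled to the size of its library, set over the 24 libraries of a table, and the macrophage and dendritic cell tables were scaled apart. Differences are log2 fold changes ± standard error from edgeR's quasi-likelihood test, called at a Benjamini-Hochberg adjusted p under 0.05 over all genes tested. Those within a cell type come from models with their own scaling. They can therefore depart from the ratio of the CPM shown. Libraries 2 of MSM LN PBS, 2 of SSM LN PBS, 1 of MSM TDLN cisplatin and 3 of SSM TDLN cisplatin resembled the other label, with r of 0.99 to 0.993 across 8001 genes to the other label's libraries against 0.695 to 0.751 to their own. The labels were kept, and macrophage results are given with and without these 4 libraries. With them the common coefficient of variation was 0.418 in MSM and 0.403 in SSM, and without them 0.0711 and 0.0716, so that most genes were then called.

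The label of the MSM LN cisplatin group went against some of its markers. The summed level of 10 lymph node macrophage markers was 1753 to 1829.9 CPM in its 3 libraries and 8033 to 23434 CPM in the other 21 macrophage libraries. Lyz2 made up much of this sum, with group means of 1481 CPM in MSM LN cisplatin and 7848 to 21160 CPM in the other macrophage groups. Siglec1, a sinus macrophage receptor, lay between 0 and 0.287 CPM in MSM LN cisplatin, and Adgre1, which encodes F4/80, between 3.43 and 3.93 CPM. Siglec1 was also low in SSM TDLN PBS, at 8.04 to 14.2 CPM. Marco and Cd163 were also low in MSM TDLN PBS. Their means were 1.19 and 2.15 CPM in MSM LN cisplatin and 0.925 and 0 CPM in MSM TDLN PBS. In SSM LN cisplatin Marco lay between 600 and 615 CPM and Cd163 between 5.87 and 8.17 CPM. Marco was at 18.1 to 20.5 CPM in SSM TDLN PBS. In LN PBS it ran from 0.606 to 1374 CPM under MSM and from 4.58 to 1369 CPM under SSM. Zbtb46, a transcription factor of conventional dendritic cells, was at 8.84 to 11.3 CPM in SSM LN cisplatin and at 90.1 to 102 CPM in MSM LN cisplatin. Of 10 dendritic cell markers 9 were above 0, with a sum of 32639 to 33987 CPM, and Xcr1 was at 0. That sum was 5239 to 25008 CPM in the other 21 macrophage libraries. It was 32834 to 54617 CPM in the dendritic cell libraries, which were scaled apart. Ccr7 had a mean of 3500 CPM in MSM LN cisplatin and of 58.3 to 1260 CPM in the other macrophage groups. For Csf1r the means were 213 CPM and 598 to 2168 CPM. Markers of other cells differed between most macrophage groups: 6 neutrophil markers summed to 9863 to 10203 CPM in TDLN PBS of MSM and to 129 to 163 CPM in that of SSM, and 6 mast cell and basophil markers to 1771 to 3005 CPM across TDLN cisplatin. Their part in the results was not tested. In sorted bulk samples fewer cells of a type and less RNA per cell cannot be told apart.

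In macrophages the genes of heme breakdown and iron export were high in SSM and low in MSM after cisplatin in the LN, a comparison that holds none of the 4 libraries. Hmox1 was 1767, 1811 and 1838 CPM in SSM and 26.9, 25.1 and 29.7 CPM in MSM. The groups do not overlap, and Hmox1 was 66.2-fold lower in MSM (log2 fold change -6.05 ± 1.62, adjusted p = 0.00507). Slc40a1, the exporter, was 415, 393 and 391 CPM in SSM against 18.6, 20.5 and 17.5 CPM in MSM (-4.40 ± 0.34, adjusted p = 5.42e-09). Slc11a1, the phagosomal metal transporter, was at 338 to 341 CPM in SSM and at 25.4 to 32.8 CPM in MSM (-3.56 ± 0.58, adjusted p = 6.25e-05). Of the 9 genes 7 were called, all lower in MSM, against 49.7% of all genes tested. The other called genes were Spic (-3.02 ± 0.72), Ftl1 (-2.20 ± 0.56), Slc48a1 (-1.53 ± 0.24) and Fth1 (-1.32 ± 0.22). MSM held 18.5 to 22.2 CPM of Tfrc and SSM 31.4 to 37.1 CPM, and Blvrb at 48.8 to 55.8 and 174 to 190.5 CPM, and neither was called. Each of the 7 calls was kept in all 24 fits that left out 1 library. When the 4 libraries were left out, all 9 members were called lower, against 72.4% of genes. The macrophage markers stood apart in the same 2 groups, with a sum of 1753 to 1829.9 CPM under MSM and of 22919 to 23434 CPM under SSM. So did mast cell and basophil markers, at 1744 to 1766 CPM under MSM, with Mcpt8 at 0, and 13.0 to 13.6 CPM under SSM, with Mcpt4 and Tpsb2 at 0. The B cell markers summed to 3599.6 to 3671 CPM under MSM and to 169.7 to 177 CPM under SSM. Their part in this result was not tested either.

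**Figure D1:**
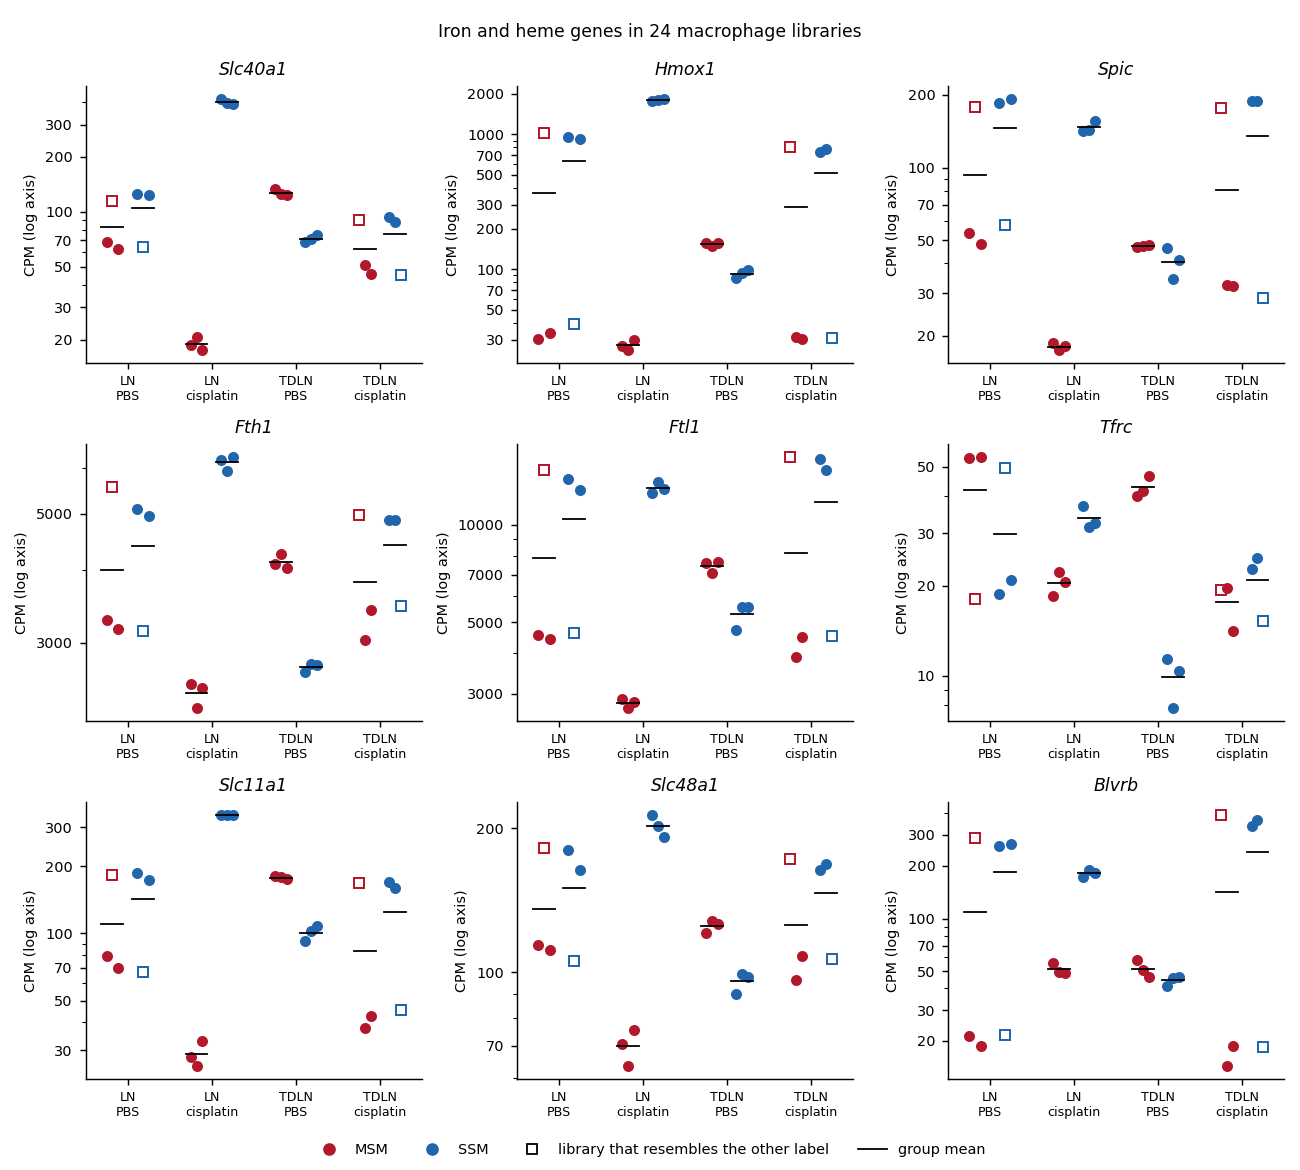
CPM (log axis) of the 9 genes in 24 macrophage libraries by node and treatment: 1 point per library, MSM in red, SSM in blue, bars at group means, and open squares for the 4 libraries that resemble the other label. In LN cisplatin Hmox1, Slc40a1 and Slc11a1 lie higher in the 3 SSM libraries than in the 3 MSM libraries. Tfrc is lowest in SSM TDLN PBS, at 7.80 to 11.4 CPM.

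With PBS in the TDLN the means of the members were higher in MSM, but only the call of Tfrc held when single libraries were left out. MSM held more Tfrc, at 40.1, 41.4 and 46.6 CPM, than SSM, at 11.4, 7.80 and 10.4 CPM. This was the largest difference of the 9 there, at 2.11 ± 0.37 on the log2 scale (adjusted p = 0.000185). It was called in each fit that left out 1 library. Slc40a1 was 133, 125 and 123 CPM in MSM and 68.3, 70.7 and 74.5 CPM in SSM (0.84 ± 0.29, adjusted p = 0.0283). Fth1 was 4103, 4268 and 4039.8 CPM in MSM and 2669, 2759.7 and 2750.5 CPM in SSM (0.60 ± 0.22, adjusted p = 0.0346). The calls of Slc40a1 and Fth1 were lost when any 1 of these 6 libraries was left out, with values of 0.80 to 0.88 and 0.58 to 0.66, and that of Fth1 also without any 1 SSM LN cisplatin library (0.60). The 6 uncalled members were higher in MSM by their means: MSM held 149 to 156 CPM of Hmox1 and SSM 85.6 to 98.7 CPM, and Slc11a1 at 175 to 180.0 and 92.1 to 108 CPM. So 3 of 9 members were called, all higher in MSM, against 40.8% of genes, and 9 of 9 without the 4 libraries of other conditions, against 67.1%. Neutrophils also express Slc11a1 as background knowledge, and their markers were at the levels given above. The 10 macrophage markers also stood apart here, with sums of 22664 to 23054 CPM under MSM and 12220 to 12642 CPM under SSM. The part of either set in these differences was not tested.

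In LN PBS and in TDLN cisplatin each label holds 1 library that resembles the other label. With PBS in the LN, Hmox1 was 30.2, 1030.3 and 33.9 CPM in the libraries labelled MSM and 949.7, 39.2 and 928 CPM in those labelled SSM. In the TDLN after cisplatin it was 801, 31.3 and 30.4 CPM under MSM and 744, 776 and 30.7 CPM under SSM. The labelled groups overlap completely, no member was called in either condition, and 0% of all genes were; at an unadjusted p under 0.05 edgeR also found 0 of 9 members in both, and DESeq2 called 0. With those 4 libraries left out, all 9 were called in both, against 62.0% of genes in LN PBS and 63.3% in TDLN cisplatin. Hmox1 was then lower in MSM, with log2 values of -4.92 in LN PBS and -4.63 in TDLN cisplatin, and Slc40a1 with -0.96 and -0.91. Tfrc alone of the 9 was higher in MSM in LN PBS (1.39, adjusted p = 2.73e-09), with Tfrc at 53.4, 18.0 and 54.0 CPM in the libraries labelled MSM and 18.8, 49.6 and 20.9 CPM in those labelled SSM. Markers of other cells also separated the remaining libraries of both conditions. Neutrophil sums in LN PBS were 5537 to 5730.5 CPM under MSM but 96.7 to 109 CPM under SSM. Those in TDLN cisplatin were 7136 to 7371 and 671 to 724 CPM. B cell markers went the other way, at 202 to 204 CPM under MSM against 2660 to 2731 CPM under SSM in LN PBS. Their sums in TDLN cisplatin were 294 to 298 and 3486 to 3570 CPM. The part of either set in the calls of the 9 genes was not tested. Averaged over the 4 conditions, 4 of 9 were called lower in MSM against 30.2% of genes: Slc40a1 (-1.05 ± 0.15), Spic (-1.05 ± 0.34), Slc11a1 (-0.92 ± 0.26) and Slc48a1 (-0.38 ± 0.12). When LN cisplatin was left out and the 4 libraries were kept, 1 member was called, Slc40a1 moved to 0.08 and Slc48a1 to 0.02, and Spic and Slc11a1 lost their calls at -0.38 and -0.04. With LN cisplatin and the 4 libraries both left out, 9 of 9 were called, against 61.1% of genes, with Slc40a1 at -0.31, Spic at -1.39, Slc11a1 at -0.81 and Slc48a1 at -0.29. Spic was also uncalled without SSM TDLN cisplatin library 1 or 2 (-0.96), and Slc48a1 without MSM LN PBS library 1 or 3 or SSM TDLN cisplatin library 2 (-0.34). In the fits without the 4, 9 of 9 were called in the average, 8 of them lower in MSM, against 57.2%.

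**Figure D2:**
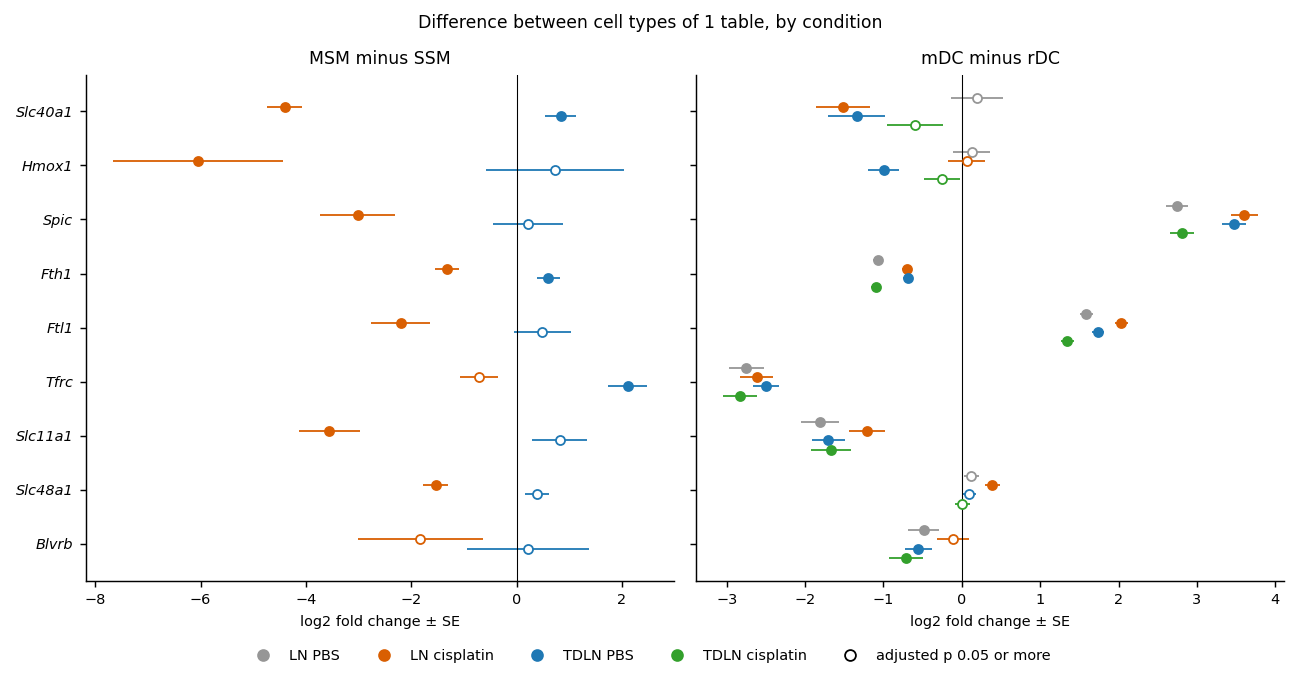
Log2 fold changes ± standard error of the 9 genes, MSM minus SSM in the 2 conditions that hold none of the 4 libraries (left) and mDC minus rDC in all 4 conditions (right), with open points where the adjusted p was 0.05 or more. Hmox1 lies at -6.05 in LN cisplatin and is not called in TDLN PBS, while Spic and Tfrc stand on opposite sides of 0 in dendritic cells in every condition.

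Cisplatin was accompanied by more ferroportin RNA in SSM of the LN and less in MSM of both nodes. In SSM of the LN, Slc40a1 was 125, 64.6 and 124 CPM with PBS and 415, 393 and 391 CPM with cisplatin. Its log2 fold change was 1.93 ± 0.29 (adjusted p = 0.00342), and 1.71 without the 4 libraries. It was the only member called there, 1 of 9 against 13.3% of genes, and it was called in each fit that left out 1 library. Once the 4 libraries were removed, 6 members rose and 2 fell, against 60.0%. Among the risers were Hmox1 (0.96) and Slc11a1 (0.94), and Tfrc gave 0.78. In MSM of the LN, Slc40a1 was 68.5, 115 and 62.8 CPM with PBS and 18.6, 20.5 and 17.5 CPM with cisplatin (-2.12 ± 0.28, adjusted p = 0.000289). Here 6 of 9 fell, against 43.4% of genes: besides Slc40a1 these were Spic (-2.37 ± 0.69), Slc11a1 (-1.94 ± 0.55), Tfrc (-1.04 ± 0.34), Slc48a1 (-0.96 ± 0.24) and Fth1 (-0.71 ± 0.23). Only the calls of Slc40a1 and Slc48a1 were kept in all 12 fits that left out 1 library. Without MSM LN PBS library 2, Spic gave -1.49, Slc11a1 -1.37 and Fth1 -0.39, uncalled. Spic, Fth1 and Tfrc were also uncalled without any 1 MSM LN cisplatin library, Slc11a1 without library 1 or 2 of that group, Tfrc without MSM LN PBS library 1 (-0.83) or 3 (-0.81), and Fth1 without any 1 MSM TDLN PBS library (-0.70). When the 4 libraries were left out, 8 members fell and Blvrb rose (1.35), against 74.0% of genes. The MSM LN cisplatin libraries are those with the lowest sum of macrophage markers. In SSM of the LN that sum was 13053 to 13737 CPM with PBS and 22919 to 23434 CPM with cisplatin. B cell markers there summed to 207 to 2731 CPM with PBS and 170 to 177 CPM with cisplatin. The part of these markers in the cisplatin results was not tested.

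In the TDLN the cisplatin results of macrophages depended on the 2 libraries that resemble the other label. Fth1 was the single member called in SSM, at 2669, 2759.7 and 2750.5 CPM with PBS and 4878, 4884 and 3473 CPM with cisplatin (0.69 ± 0.19, adjusted p = 0.0246; 23.0% of genes were called). The call was lost without SSM TDLN cisplatin library 1 or 2 (0.62 and 0.63) or without any SSM TDLN PBS library (0.68 to 0.71). With those 4 libraries left out, all 9 members rose in SSM, against 71.1% of genes. Hmox1 then gave 3.03 and Blvrb 2.97, followed by Spic (2.22), Ftl1 (1.53) and Tfrc (1.28). The values behind Blvrb were 41.4, 45.8 and 46.6 CPM with PBS and 336, 364 and 18.5 CPM with cisplatin. In MSM of the TDLN, Tfrc fell by 1.25 on the log2 scale (adjusted p = 0.0175) and Slc40a1 by 1.01 (adjusted p = 0.0155), 2 of 9 against 37.1% of genes. Tfrc was 40.1, 41.4 and 46.6 CPM with PBS and 19.4, 19.6 and 14.1 CPM with cisplatin, and Slc40a1 133, 125 and 123 CPM against 89.8, 51.2 and 45.8 CPM. Without MSM TDLN cisplatin library 3 these were -1.10 and -0.82, and without library 2 Slc40a1 was -0.88, each uncalled in those fits. In the fits without the 4, all 9 members fell, against 69.0%, with Hmox1 at -2.29 in place of 0.92 and Slc11a1 at -2.12. Macrophage markers in MSM of the TDLN summed to 22664 to 23054 CPM with PBS and 8033 to 12706 CPM with cisplatin. Mast cell and basophil markers there summed to 0 to 0.268 CPM and 1771 to 2979 CPM. In SSM of the TDLN macrophage markers summed to 12220 to 12642 CPM with PBS and 8081 to 12212 CPM with cisplatin. The part of these markers was not tested.

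**Figure D3:**
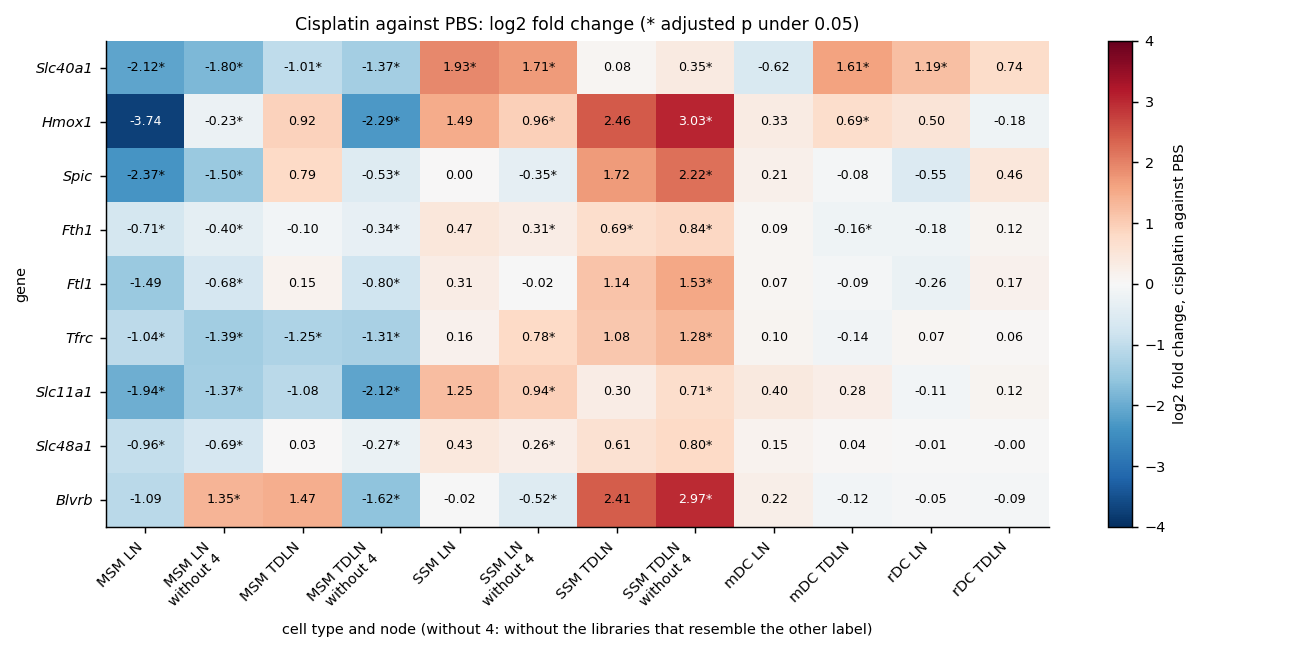
Log2 fold changes of cisplatin against PBS for the 9 genes in each cell type and node, with macrophages also shown without the 4 libraries that resemble the other label; asterisks mark an adjusted p under 0.05. Slc40a1 is 1.93 in SSM of the LN and -2.12 in MSM of the LN, and the dendritic cell columns are paler, with Slc40a1 at 1.61 in mDC of the TDLN and 1.19 in rDC of the LN.

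The node of origin was compared within each treatment. With PBS, 2 of 9 members were lower in SSM of the TDLN than of the LN, against 19.7% of genes. Tfrc (-1.60 ± 0.36, adjusted p = 0.0139) was 11.4, 7.80 and 10.4 CPM in the TDLN and 18.8, 49.6 and 20.9 CPM in the LN. Fth1 (-0.69 ± 0.19, adjusted p = 0.027) lost its call without any 1 SSM TDLN PBS library or without SSM LN PBS library 1 or 3 (-0.57 to -0.68), and Tfrc without SSM TDLN PBS library 2 (-1.44) or 3 (-1.62). Without SSM LN PBS library 2, which resembles the other label, Tfrc gave -0.985 and was called. Once the 4 libraries were removed, 9 of 9 were lower in the TDLN (67.8% of genes called), led by Hmox1 at -3.31 and Spic at -2.20. In MSM with PBS no member was called, against 38.2%, and 7 were without the 4 libraries, against 69.7%, 6 of them higher and 1 lower in the TDLN, with Hmox1 2.24 higher. edgeR found 1 of 9 members of that uncalled comparison at an unadjusted p under 0.05, and DESeq2 called 0. With cisplatin, Slc40a1 was the 1 member called in SSM, against 17.4% of genes: it was 94.2, 87.5 and 45.4 CPM in the TDLN against 415, 393 and 391 CPM in the LN (-2.40 ± 0.29, adjusted p = 0.000726). When the 4 libraries were left out, 9 of 9 were called, 6 lower and 3 higher, against 61.9%. In MSM with cisplatin 5 of 9 were higher in the TDLN, against 43.3%. Without the 4 libraries 7 were called, 6 higher and 1 lower, against 74.4%. Slc40a1 led with 1.72 ± 0.28 (adjusted p = 0.000984) and kept its call in all 12 fits that left out 1 library. Without MSM TDLN cisplatin library 1, Spic gave 0.84, Slc11a1 0.49 and Fth1 0.40, in place of 2.16, 1.53 and 0.63, and all were uncalled, while Slc48a1 gave 0.55 in place of 0.85. Over the 12 fits Fth1 lost its call in 8, Slc11a1 in 8, Spic in 4 and Slc48a1 in 2. Leaving out any 1 MSM LN cisplatin library was enough to lose Fth1, Slc11a1 and Spic.

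Whether the cisplatin effect differed between nodes was tested as an interaction. For Slc40a1 in SSM the effect was 1.85 lower on the log2 scale in the TDLN than in the LN (-1.85 ± 0.40, adjusted p = 0.0099), in 1 of 9 members against 21.6% of genes, and this held in each fit that left out 1 library. In MSM the difference was positive for Spic (3.15 ± 0.95), Slc40a1 (1.11 ± 0.39) and Slc48a1 (0.98 ± 0.33), 3 of 9 against 40.7%. Of the 12 fits that left out 1 MSM library, 7 lost the call of Spic (2.29 to 3.19), 9 that of Slc40a1 (0.76 to 1.17) and 8 that of Slc48a1 (0.70 to 1.05). Spic kept its call but gave 1.85 without MSM TDLN cisplatin library 1. Without the 4 libraries 6 of 9 were called in MSM, 3 higher and 3 lower, against 65.1%, and the median of the 9 was 0.06 in place of 1.11. In SSM 9 of 9 were called without them, 7 higher and 2 lower, against 65.8%, with Slc40a1 still lower at -1.36.

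Dendritic cells held other proportions of the same genes, and the 2 subsets differed in all 9 when the 4 conditions were averaged (74.4% of genes were called). Spic, the heme-induced factor, was 53.1 to 90.9 CPM in the 12 mDC libraries, median 68.9, and 3.23 to 11.6 CPM in the 12 rDC libraries, median 7.92. No library overlapped, and Spic was 8.92-fold higher in mDC (3.16 ± 0.08, adjusted p = 8.18e-25). Ftl1, the light ferritin chain, was 6353 to 8714 CPM in mDC and 1944 to 3066 CPM in rDC (1.68 ± 0.04, adjusted p = 4.78e-25). Fth1, the heavy chain with ferroxidase activity, went the other way, at 962 to 1284 CPM in mDC and 1829 to 2464 CPM in rDC (-0.89 ± 0.03, adjusted p = 7.81e-21). Tfrc was 6.70 to 9.92 CPM in mDC and 39.4 to 70.7 CPM in rDC, 6.40-fold lower in mDC (-2.68 ± 0.10, adjusted p = 5.25e-20). Slc11a1 was also lower in mDC (-1.60 ± 0.12), at 5.66 to 19.4 CPM against 25.5 to 41.9 CPM. These 5 genes were called in each of the 4 conditions and in each of the 24 fits that left out 1 library.

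**Figure D4:**
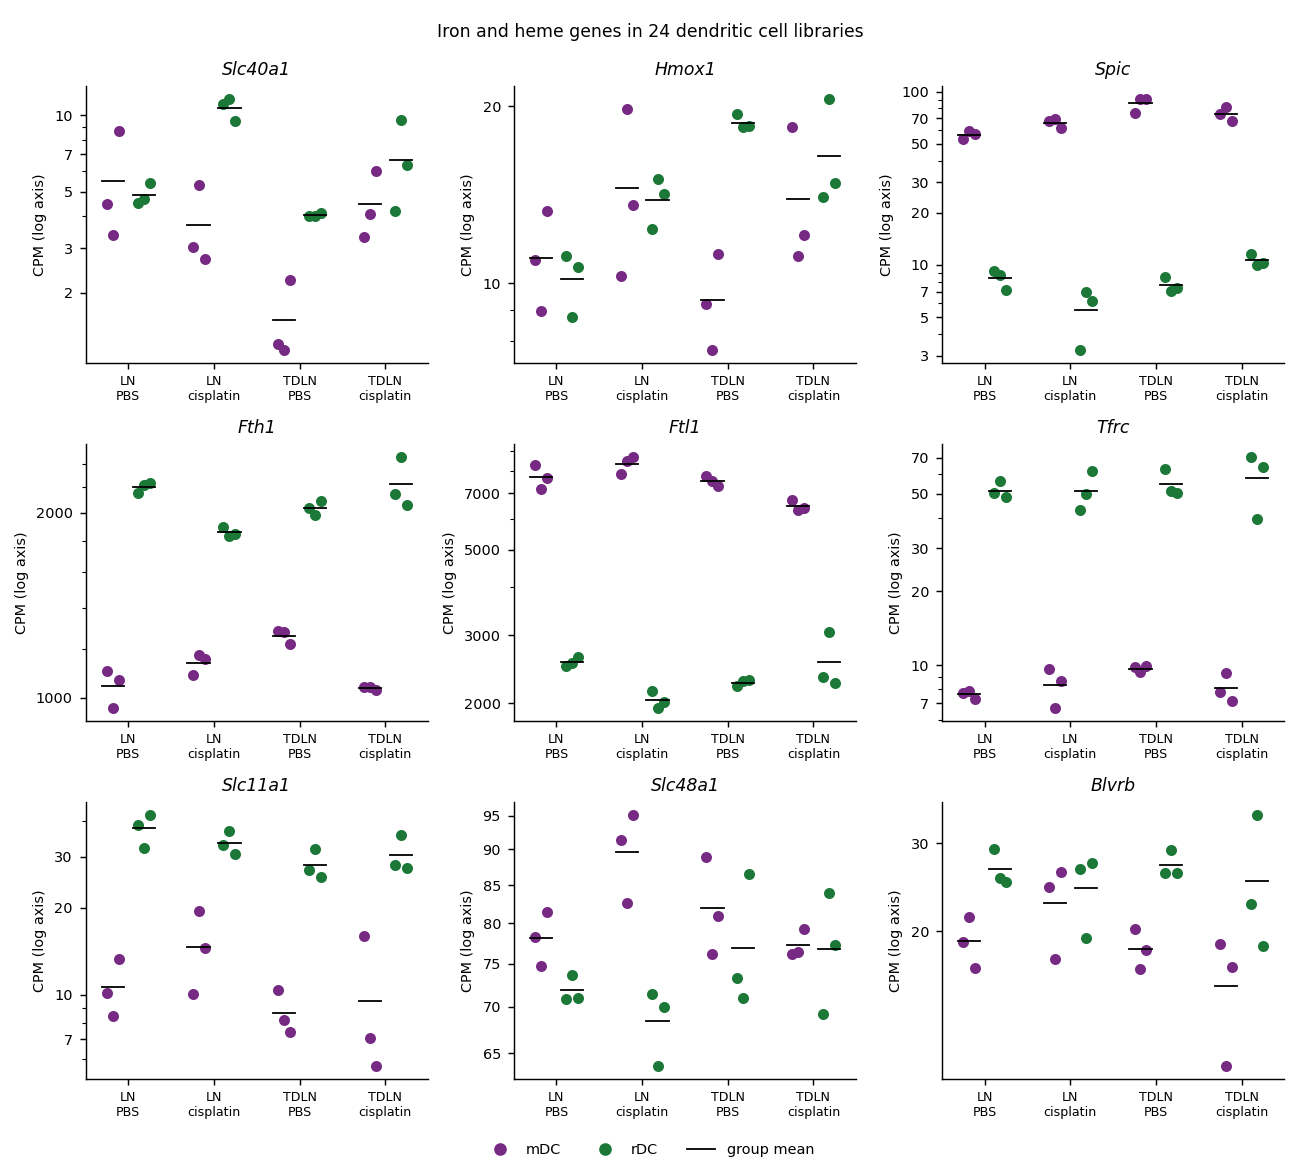
CPM (log axis) of the 9 genes in 24 dendritic cell libraries by node and treatment: 1 point per library, mDC in purple, rDC in green, bars at group means. Spic and Ftl1 lie higher in all 12 mDC libraries, Fth1, Tfrc and Slc11a1 in all 12 rDC libraries, and the 2 subsets overlap for Hmox1, Slc40a1, Slc48a1 and Blvrb.

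The heme-degrading and exporting genes were low in both dendritic subsets and differed less. Hmox1 was 7.70 to 19.8 CPM in mDC and 8.75 to 20.6 CPM in rDC (-0.27 ± 0.11, adjusted p = 0.0349), and the call was lost with DESeq2 (-0.25) and in 14 of the 24 fits that left out 1 library (-0.13 to -0.26). Slc40a1 was 1.19 to 8.69 CPM in mDC and 4.02 to 11.6 CPM in rDC (-0.81 ± 0.17, adjusted p = 0.000128). Blvrb was lower in mDC (-0.47 ± 0.10) and Slc48a1 slightly higher (0.15 ± 0.05), the latter at 74.7 to 95.1 CPM against 63.7 to 86.6 CPM. Slc48a1 lost its call without the filter on low counts (0.13). By condition, 6 of 9 were called in LN PBS against 66.6% of genes, 7 in LN cisplatin against 54.9%, 8 in TDLN PBS against 72.4% and 6 in TDLN cisplatin against 56.1%. Slc40a1 was lower in mDC in LN cisplatin (-1.52 ± 0.35) and TDLN PBS (-1.34 ± 0.36), and Hmox1 in TDLN PBS alone, at 7.70 to 11.2 CPM against 18.4 to 19.4 CPM; that Hmox1 or Slc40a1 differed between conditions was not tested. Markers of other cells moved with the subsets. Zbtb46 was 467 to 619 CPM in mDC and 84.8 to 147 CPM in rDC. All 5 plasmacytoid dendritic cell markers were above 0 in both, with sums of 851 to 1135 CPM in mDC against 3437 to 6681 CPM in rDC. The 5 B cell markers summed to 122 to 339 CPM in mDC and 1250.5 to 2733 CPM in rDC, and the 10 lymph node macrophage markers to 683 to 1196 CPM against 2021 to 3094.5 CPM. Their part in the differences between mDC and rDC was not tested.

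Few of these genes were called for cisplatin in dendritic cells. Slc40a1 was called in the TDLN alone in mDC and in the LN alone in rDC, at levels of 1.19 to 11.6 CPM. In mDC of the TDLN, Slc40a1 was 1.26, 1.19 and 2.25 CPM with PBS and 3.33, 4.08 and 6.04 CPM with cisplatin (1.61 ± 0.42, adjusted p = 0.00626). Hmox1 rose from 9.22, 7.70 and 11.2 CPM to 18.5, 11.1 and 12.1 CPM (0.69 ± 0.23, adjusted p = 0.0294), and Fth1 fell by 0.16 (adjusted p = 0.0321). These 3 of 9 stand against 27.3% of genes. Without the filter on low counts the 9 genes of this comparison moved by a median of -0.275, more than the size of the Fth1 value. The PBS libraries of this comparison are the deep ones: thinned to the depth of the others, Slc40a1 gave 1.37 (adjusted p = 0.072). Hmox1 was uncalled without mDC TDLN cisplatin library 1 (0.42), mDC TDLN PBS library 1 (0.67) or 2 (0.55), Slc40a1 without mDC TDLN cisplatin library 3 (1.33), and Fth1 without 5 of these 6 libraries (-0.15 to -0.18). In mDC of the LN no member was called, against 11.0%, at 0 of 9 with an unadjusted p under 0.05 and 0 by DESeq2. The mean of Slc40a1 there was 5.51 CPM with PBS and 3.68 CPM with cisplatin. In rDC the single call was Slc40a1 in the LN, at 4.49, 4.69 and 5.43 CPM with PBS and 11.0, 11.6 and 9.46 CPM with cisplatin (1.19 ± 0.24, adjusted p = 0.00245; 17.9% of genes). It held in each fit that left out 1 library. In rDC of the TDLN 0 of 9 were called, against 1.01%, with 1 at an unadjusted p under 0.05 and 0 by DESeq2.

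Between nodes, mDC with PBS held less Slc40a1 in the TDLN than in the LN (-1.95 ± 0.42), at 1.26, 1.19 and 2.25 CPM against 4.46, 3.37 and 8.69 CPM, and more Spic (0.45 ± 0.10), at 75.1, 90.9 and 90.3 CPM against 53.1, 59.0 and 57.2 CPM. Ftl1 was lower in the TDLN by -0.19 ± 0.05, but this value turned to 0.16 without the filter on low counts, which moved the 9 genes of this comparison by a median of 0.35. It was uncalled without mDC LN PBS library 1 (-0.11) or mDC TDLN PBS library 3 (-0.15). The 3 calls stand against 29.1% of genes. With cisplatin the 1 call was Ftl1 (-0.35 ± 0.05, adjusted p = 4.13e-05), against 14.8%. Of the 9, Slc40a1 (2.23 ± 0.61) and Fth1 (-0.24 ± 0.08) had cisplatin effects that differed between nodes in mDC, against 15.6%. Without the filter on low counts the 9 genes moved by a median of -0.324 in this node difference, more than the size of the Fth1 value. In rDC with PBS, Hmox1 was 19.4, 18.4 and 18.5 CPM in the TDLN and 11.1, 8.75 and 10.7 CPM in the LN (0.93 ± 0.17, adjusted p = 0.000713), the 1 call against 27.0%. With cisplatin Spic (0.95 ± 0.25), Ftl1 (0.32 ± 0.10) and Fth1 (0.25 ± 0.08) were higher in the TDLN, 3 of 9 against 14.8%. Without rDC LN cisplatin library 1, at 3.23 CPM, Spic was 0.70 and uncalled, and 6 of the 12 fits that left out 1 library lost the calls of Fth1 (0.24 to 0.25) and Ftl1 (0.30 to 0.32). Without rDC TDLN cisplatin library 2 both were called but lower, at 0.18. No interaction was called in rDC, against 5.31%, with 4 of 9 at an unadjusted p under 0.05 and 2 called by DESeq2.

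The 2 ferritin chains can be set against each other per length. The ratio of Ftl1 to Fth1 in the deposited TPM, which are scaled by transcript length and depth, was 7.63 ± 0.794 (SD, n = 12) in mDC, range 6.64 to 8.73, and 1.26 ± 0.0491 (n = 12) in rDC, range 1.17 to 1.32. In macrophages, whose deposited values lack decimals, it was 1.17 to 3.24 in MSM and 1.33 to 3.37 in SSM. Within macrophages the MSM LN cisplatin libraries were lowest, at 1.17 to 1.20. Ftl1 has near-identical copies, of which Ftl1-ps1 alone was listed at 136 to 843 CPM in macrophages and 60.3 to 494 CPM in dendritic cells, so that reads could be split between them and the level of Ftl1 is uncertain by that share. Ftl1 also overlaps Gm10252 by 416 bases and Slc48a1 overlaps Hdac7 by 29 bases, both on the opposite strand. On its own strand Ftl1 overlaps Gm22133, a miRNA gene, by 109 bases.

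**Figure D5:**
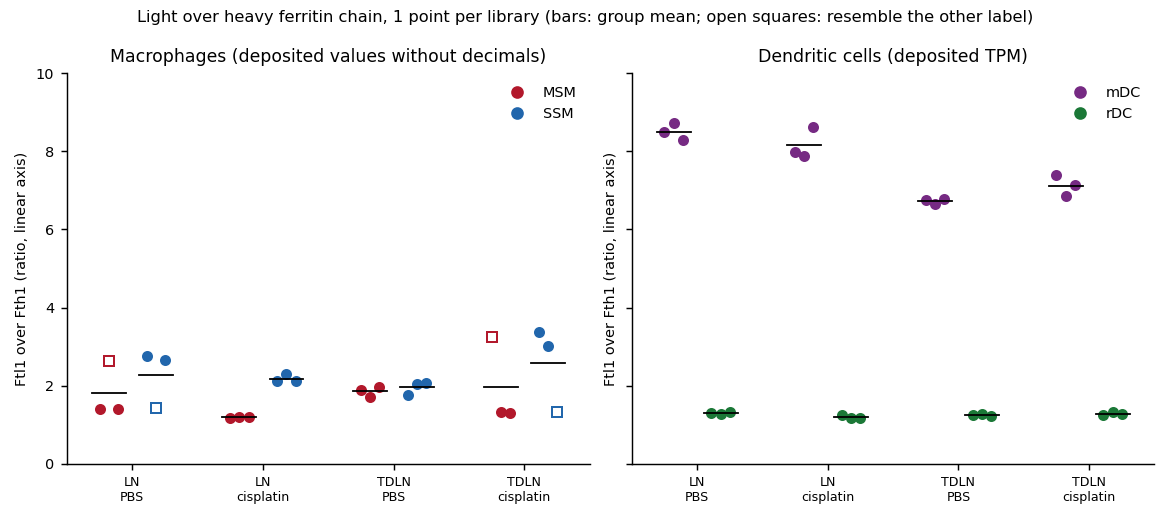
Ratio of Ftl1 to Fth1 (linear axis) in each library, from the deposited values per length, with bars at group means. The mDC libraries lie between 6.64 and 8.73, and all rDC and macrophage libraries between 1.17 and 3.37.

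Over the 24 macrophage libraries the log2(CPM + 1) of Hmox1 followed that of Ftl1 (r = 0.954), Slc48a1 (0.918), Spic (0.917) and Fth1 (0.915), while Tfrc followed none of the 8 others closely (r of -0.064 to 0.325). These values describe 24 libraries that share groups and composition. In dendritic cells they mirror the 2 subsets: Tfrc had r of -0.978 with Ftl1 and 0.955 with Fth1. Among 9079 genes of at least 10 CPM in macrophages, Gusb (r = 0.978) was most like Slc40a1, Rab3il1 (0.967) like Hmox1 and Pik3cb (0.910) like Tfrc. Among 8877 in dendritic cells, Vwa5a (0.989) was most like Spic and Slc30a5 (0.991) most like Tfrc, while the best match to Slc40a1 was Hmces at 0.728 and to Hmox1 Shc1 at 0.753.

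Around the 9 genes, 6 lists of 59 genes covered the rest of iron and heme biology. Between dendritic subsets 74.4% of all genes were called, and the counts of the lists are to be read beside that share. Of 8 Nrf2 target genes tested 6 were higher in mDC and 2 lower, with a median of 0.97 against -0.06 over all genes. Gclc, which starts glutathione synthesis, was 2.51 higher, Srxn1 3.36 and the cystine transporter Slc7a11 2.27. Of 8 heme synthesis genes 2 were higher, among them Fech (0.80), which inserts the iron, and 6 lower, among them Alad (-1.56) and Cpox (-1.18). Of 8 storage and sensing genes 5 were higher, including Aco1, which encodes IRP1 (1.51), the ferritin receptor Ncoa4 (1.15) and the iron sensor Fbxl5 (1.00), and 2 were lower. Of 7 heme handling genes 2 were higher, with the heme exporter Flvcr1 at 1.42, and 4 lower, with Lrp1, which takes up heme bound to hemopexin, at -1.04. Of 10 uptake genes 3 were higher and 6 lower, with Hfe at -0.98. Of 8 red pulp genes 2 were higher, with the adhesion molecule Vcam1 at 2.48, and 4 lower, with Treml4 at -3.28.

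In macrophages the same lists were compared in the 2 conditions that hold none of the 4 libraries. In LN cisplatin, where 49.7% of all genes were called, 7 of 8 red pulp genes were lower in MSM, among them Vcam1, at a mean of 1.5 CPM in MSM and 193 CPM in SSM, and Cd5l, at 0.137 and 272 CPM, and 7 of 10 Nrf2 targets were lower and 0 higher. Of 7 heme handling genes 3 were lower, with Lrp1 at a mean of 0.211 CPM in MSM and 206 CPM in SSM, and of 10 storage genes 5 were lower and 2 higher. Of 12 uptake genes 5 were lower, with Hfe at -4.70, and 1 higher, and of 8 heme synthesis genes 3 were lower and 1 higher. Without the 4 libraries 72.4% of genes were called there, and 7 of 8 red pulp and 8 of 9 Nrf2 genes were lower and 0 higher. Heme handling then had 5 of 8 lower and 1 higher, heme synthesis 5 of 8 and 2, uptake 7 of 13 and 4, and storage 7 of 10 and 2.

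In TDLN PBS 40.8% of genes were called. Of 10 Nrf2 targets 3 were higher in MSM and 0 lower, of 8 red pulp genes 1 and 0, and of 8 heme synthesis genes 1 and 0. Of 10 storage genes 4 were higher and 2 lower, of 12 uptake genes 3 and 2, and of 7 heme handling genes 1 and 3. The iron-binding neutrophil protein Lcn2 (6.55) and haptoglobin, Hp (2.27), were higher in MSM, beside the neutrophil markers given above, and Bach1, a heme-sensing repressor of Hmox1, was higher too (2.04). Flvcr1 was lower in MSM there (-1.60). Without the 4 libraries, against 67.1%, MSM was higher in 4 of 9 Nrf2, 4 of 8 red pulp, 2 of 8 synthesis, 5 of 10 storage, 6 of 13 uptake and 1 of 8 heme handling genes, and lower in 1, 1, 3, 3, 4 and 5 of them.

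After cisplatin in the LN 5 of 8 Nrf2 targets rose in mDC and 0 fell, against 11.0% of genes, with Gclc at 0.55, and in rDC 2 fell, against 17.9%, with Taldo1 at -0.71. In the TDLN 2 of 8 fell in mDC, against 27.3%, and in rDC 0 were called, against 1.01%.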

How the data were processed

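Poly(A) RNA of sorted lymph node myeloid cells was sequenced from stranded libraries, per the labels' protocols. RSEM 1.3.0, STAR and DESeq2 1.38.3 on GRCm38 are named in the submitters' processing notes. The authors deposited RSEM expected counts per gene, rounded to whole numbers, in 1 table of 24 macrophage and 1 of 24 dendritic cell libraries. The dendritic cell columns are named Tumor and WT, which were read as TDLN and LN because every sample is labelled wild type, so the node of these libraries rests on that reading. They also deposited TPM, scaled by transcript length and depth,, used here for the ferritin ratio alone. The macrophage TPM were deposited with decimals dropped and are treated as a score.

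From the counts, edgeR 4.0.16 (R 4.3.3) fitted quasi-likelihood models with TMM scaling after its filter on low counts: 1 model of 12 libraries per cell type and 1 of 24 per pair of types, for 30 comparisons. P-values were adjusted by Benjamini-Hochberg over all genes tested, with a threshold of 0.05. The standard error is the absolute log2 fold change over the square root of F. The models were tested on simulated data, with all libraries kept. In MSM 5% of 2-fold and 52% of 4-fold changes were called, and in SSM 9% and 56%. The shares were 77% and 97% in mDC and 69% and 88% in rDC. They were 63% and 85% for MSM against SSM and 93% and 95% for mDC against rDC, over all conditions. A gene not called in the MSM or SSM models may therefore still differ. Alternatives were DESeq2 1.42.0, its size factors in edgeR, no filter on low counts, the compared libraries alone, a replicate block, deep dendritic cell libraries thinned to the depth of the others, each library left out in turn, and fits without the 4 libraries that resemble the other label or without LN cisplatin.

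The members and lists were chosen with earlier results of these data known. All 9 members are reported. Of each other list, up to 3 called genes with the largest change and a mean of at least 4 CPM may be named, and for 4 members the genes of at least 10 CPM most like them; 1 gene that this rule names is not reported here. Hairpins of the members were read from a single GENCODE M21 coding transcript per gene, and the shares over all genes from all coding transcripts. Replicate libraries all differed by more than sampling noise (chi-square per gene of 1.763 to 177.551).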

Additional observations from a re-analysis of the deposited data

Results flagged for a closer look

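For 6 results the cisplatin effect differed between nodes by edgeR's test of the difference itself, given as the log2 effect in the TDLN minus that in the LN. In MSM these were Slc40a1 at 1.111, Spic at 3.154 and Slc48a1 at 0.984, and without the 4 libraries that resemble the other label they were 0.43, 0.97 and 0.42. In SSM it was Slc40a1 at -1.846, with -1.36 without those libraries. In mDC they were Slc40a1 at 2.227 and Fth1 at -0.244. The Slc40a1 value in mDC was uncalled without mDC LN PBS library 3 (1.74), without mDC TDLN cisplatin library 3 (1.95) and with the deep libraries thinned. The Fth1 value in mDC was uncalled in 4 of the 12 fits that left out 1 library (-0.22 to -0.25).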

How the results depend on the processing

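Counts of members called, out of 9, are given here where they moved by over 1.5 times. With DESeq2 the node difference of the cisplatin effect had 1 call in MSM and 2 in rDC; SSM had 4 for cisplatin in the TDLN, 2 in the LN, 5 between nodes with PBS and 2 with cisplatin; rDC had 3 for cisplatin in the LN and 2 between nodes with PBS. DESeq2's size factors in edgeR gave 3 in MSM between nodes with cisplatin and 1 for its node difference. With the compared libraries alone, the counts were 2 for MSM between nodes with cisplatin, 2 for SSM with cisplatin in the TDLN, 7 for MSM against SSM in TDLN PBS, and in rDC 4 for cisplatin in the LN, 3 between nodes with PBS and 0 with cisplatin. Thinning left 1 call in the mDC node difference. Without the filter on low counts mDC had 5 between nodes with PBS and 5 in the node difference, and rDC 5 for cisplatin in the LN, 4 between nodes with PBS and 3 in the node difference; Ftl1 in mDC between nodes with PBS turned to 0.164.

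Replicate numbers did not pair the libraries: the median correlation of same-numbered deviations was -0.049 to 0.012 over the models. With the replicate as a block, MSM had 2 calls between nodes with cisplatin and 0 in the node difference, SSM 0 for cisplatin in the TDLN and 1 between nodes with PBS, and rDC 1 between nodes with cisplatin.

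Without the 4 libraries that resemble the other label, MSM had 9 calls for cisplatin in the TDLN, 7 between nodes with PBS and 6 in the node difference. SSM had 8 for cisplatin in the LN and 9 in each other comparison, and MSM against SSM had 9 over all conditions, in LN PBS, in TDLN PBS and in TDLN cisplatin. Hmox1 in MSM turned to -2.288 for cisplatin in the TDLN and 2.242 between nodes with PBS, and Blvrb to 1.351 for cisplatin in the LN. Over the fits that left out 1 library, Hmox1 in MSM ranged from -2.29 to 1.461 and from -1.799 to 2.242 in these comparisons, Blvrb from -1.592 to 1.355, and Tfrc in SSM for cisplatin in the LN from -0.082 to 0.783. Without LN cisplatin MSM against SSM over all conditions had 1 call, with Slc40a1 at 0.081 and Slc48a1 at 0.018, and 9 without the 4 libraries as well.

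Over the fits that left out 1 library, calls ranged in MSM from 0 to 3 for cisplatin in the TDLN, 2 to 8 in the LN, 0 to 1 between nodes with PBS, 1 to 7 with cisplatin and 0 to 3 in the node difference. In SSM the ranges were 0 to 7, 1 to 3, 0 to 8, 1 to 4 and 1 to 3. MSM against SSM had 2 to 8 over all conditions and 1 to 3 in TDLN PBS. In mDC there were 1 to 3 for cisplatin in the TDLN, 1 to 3 between nodes with cisplatin and 0 to 3 in the node difference. In rDC there were 1 to 4 for cisplatin in the LN, 1 to 3 between nodes with PBS, 1 to 4 with cisplatin and 0 to 4 in the node difference. Where no value shows it, the cause of these moves was not tested. Low counts limit Slc40a1 in dendritic cells, at 1.19 to 11.6 CPM.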
